A study of Rattus norvegicus with 16 samples.

Results

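A set of 38 genes of DNA replication and S phase was examined in 4 tendons of the rat (Sprague Dawley strain). Achilles and patellar tendons came from the hindlimb, and the forepaw flexor tendon (flexor below) and the supraspinatus tendon from the forelimb. The genes were chosen by symbol, with no measured value in the rule, but with earlier results of these data known. Of the 38, 37 were in the count table. E2f1, a transcription factor that activates many of the others, was not analysed here. All 37 genes passed the filter on low counts, among 16948 genes tested of 23285 in the table. Each tendon had 4 bulk RNA-seq libraries made from total RNA, 16 in all, and the tendons were compared with each other with no treatment or genotype in the labels. Age, sex and the number of animals are not stated in the labels, so the p-values measure the spread between these libraries, which may be technical.

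DNA replication starts at origins, where CDC6 and CDT1 load the ring of MCM proteins onto DNA before S phase. CDC45 and the GINS complex then join the ring to form the moving helicase, primase and polymerase alpha lay primers, polymerases delta and epsilon copy the strands, and the PCNA clamp, placed by replication factor C, keeps the polymerases on the template. Most of these genes are switched on together at the end of G1 by E2F factors and are low in resting cells, and fibroblasts of adult tendon are known to divide rarely.

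The libraries held 63397591 to 102491699 gene counts, so that 3 counts correspond to 0.0293 to 0.0473 CPM (counts scaled to a common library total), and the smallest count of any of the 37 genes in any library was 21 (Rrm2). All 8 tendon fibroblast markers had counts in every library. They summed to 66830 to 139800 CPM in Achilles and 52820 to 112500 CPM in patellar. In flexor they summed to 37700 to 54940 CPM and in supraspinatus to 41290 to 77570 CPM. The Achilles and flexor sums did not overlap, while the median log2 fold change of the 8 markers in that pair was 0.005. Skeletal muscle transcripts differed widely. The 11 muscle markers summed to 109500 to 207500 CPM in supraspinatus, 13410 to 50910 CPM in flexor, 371 to 29750 CPM in patellar and 524 to 7070 CPM in Achilles. The TMM factors, which scale each library for its composition, were 0.731 to 0.876 in supraspinatus and above 1 in every other library.

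Replication genes were higher in the hindlimb tendons than in the forelimb tendons. In Achilles over flexor 35 of the 37 genes were higher and 0 were lower at an adjusted p under 0.05 (edgeR quasi-likelihood test, Benjamini-Hochberg adjustment over all genes tested), with 0 lower at an unadjusted p under 0.05 too, also by DESeq2 and limma-voom. Among all genes tested 47.7% were called in that pair and 23.5% were called higher. In Achilles over supraspinatus 33 were higher and 0 lower, against 50.1% of all genes called and 25.4% called higher. In flexor over patellar 30 were lower and 0 higher, against 50.5% of all genes called and 24.7% called lower. In patellar over supraspinatus 28 were higher and 1, Dut, was lower, against 56.4% of all genes called, 28.8% higher and 27.5% lower. Libraries of the pair did not overlap for 35 genes in Achilles over flexor (22.7% of all genes tested in that direction), 32 in Achilles over supraspinatus (21.6%), 27 lower in flexor than in patellar (24.1%), and 27 higher and 1 lower in patellar than in supraspinatus (23.2% and 25%). In a bulk library fewer dividing cells and less of these RNAs per cell cannot be told apart.

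The median log2 fold change over the 37 genes was 1.02 in Achilles over flexor, 1.22 in Achilles over supraspinatus, -0.80 in flexor over patellar and 0.83 in patellar over supraspinatus. Over all genes tested the medians of these pairs were 0.01, 0.05, 0.03 and 0.05. Within a limb the differences were small, with a median of 0.33 in Achilles over patellar and -0.08 in flexor over supraspinatus. Achilles had the highest mean of the 4 tendons for 33 of the 37 genes, while it was highest for 18.5% of all genes tested. The lowest mean was in flexor for 21 genes, in supraspinatus for 15 and in patellar for 1, and Achilles was lowest for 0 genes against 16.5% of all genes tested. Both hindlimb means lay above both forelimb means for 32 genes, against 28.3% of all genes tested. All 8 hindlimb libraries lay above all 8 forelimb libraries for 23 genes, against 9.3% of all genes tested. In the test among the 4 tendons 36 of the 37 genes passed, and so did 75.6% of all genes tested. The exception was Dut, with an adjusted p of 0.0589 that fell below 0.05 in 10 of the 24 alternative fits. The call of Pola1 (adjusted p = 0.0403) was lost in 15 of the 24, among them 12 fits without 1 library (all but Achilles 1, Achilles 4, Patellar 3 and Supraspinatus 1), with adjusted p-values up to 0.121. It was also lost with limma-voom (adjusted p = 0.0514) and with no filter (adjusted p = 0.0508).

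**Figure D1:**
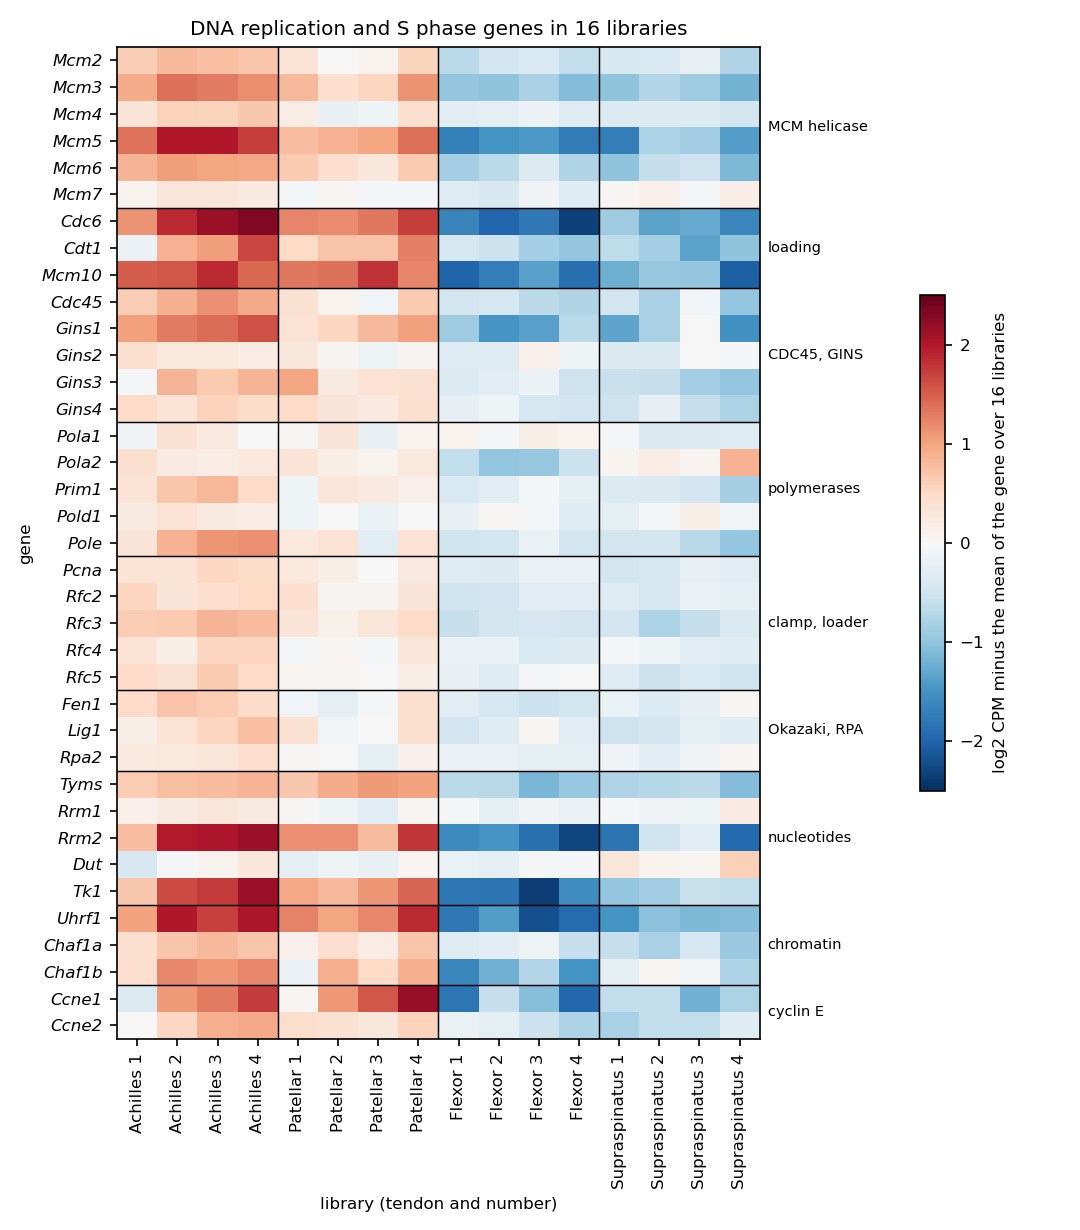
Level of each of the 37 genes (rows, grouped by role) in each of the 16 libraries (columns), as log2 CPM minus the mean of that gene over all libraries. Red marks levels above the gene's mean and blue below it, and most rows are red in the 8 hindlimb libraries and blue in the 8 forelimb libraries, with Dut, Pola1, Pola2, Rrm1 and Mcm7 as pale or mixed rows.

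The size of the hindlimb difference varied widely from gene to gene. In Achilles over flexor 19 of the 37 genes differed at least 2-fold, 10 at least 4-fold and 6 at least 8-fold, from 14.4-fold for Cdc6 down to 1.06-fold for Pola1. The 6 genes above 8-fold were Cdc6, Rrm2, Uhrf1, Tk1, Mcm5 and Mcm10. Among all genes tested 28.1% differed at least 2-fold in that pair and 10.6% at least 4-fold. In Achilles over patellar 0 of the 37 genes differed 2-fold and the largest difference was 1.71-fold (Mcm5). In flexor over supraspinatus 3 genes differed at least 2-fold, and the largest of these differences was 2.17-fold (Tk1, lower in flexor).

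Comparisons that had no library in common ranked the genes similarly, although not identically. Over the 37 genes the log2 fold changes of Achilles over flexor and of patellar over supraspinatus had a Pearson correlation of 0.903 and a Spearman correlation of 0.873, and 27 genes were called higher in both. Over all genes tested the same correlations were 0.497 and 0.401. The other pairing, Achilles over supraspinatus against patellar over flexor, gave 0.905 and 0.877, with 28 genes called higher in both, beside 0.479 and 0.419 over all genes. These values are across genes, which are not independent, and both comparisons of a pairing came from 1 fit with shared scaling, so no p is given.

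**Figure D2:**
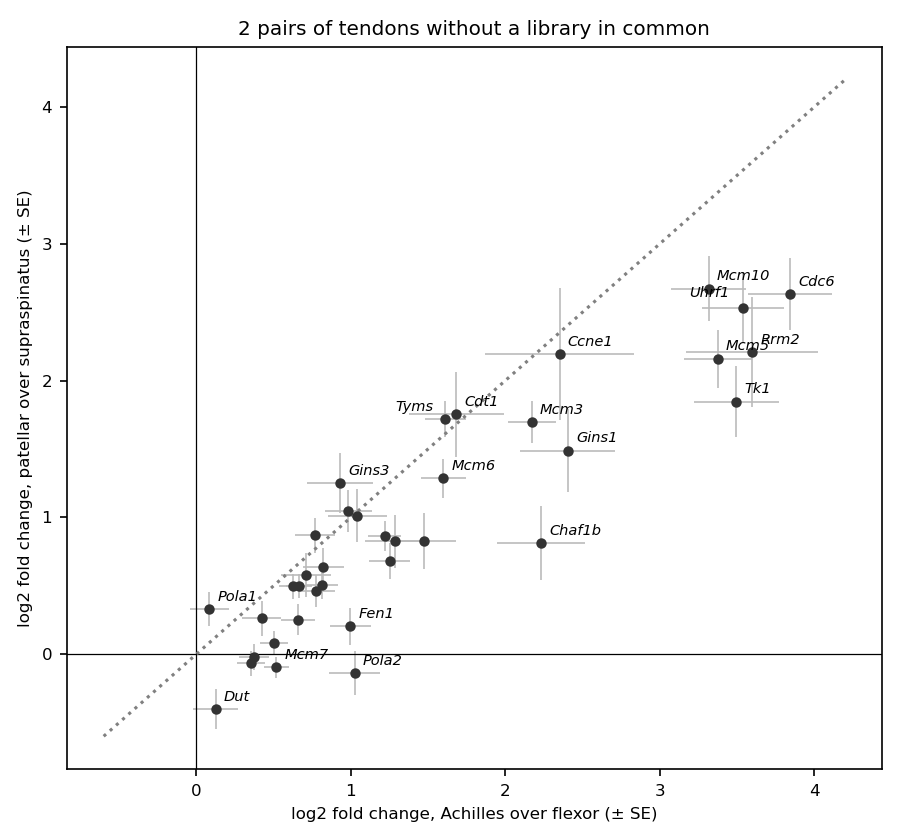
Log2 fold change of Achilles over flexor (horizontal axis) against patellar over supraspinatus (vertical axis) for the 37 genes, with standard errors as bars and the line of equal values dotted. The 2 comparisons have no library in common. Cdc6, Rrm2, Uhrf1, Tk1, Mcm5 and Mcm10 lie farthest right, between 3.32 and 3.84, while Dut, Pola2 and Mcm7 lie below 0 on the vertical axis.

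The start regions of some of these genes are shown because E2F factors are the known activators of the set. In RefSeq windows of the GRCr8 assembly from 250 bases before to 50 bases after the annotated start, available for 32 of the 37 genes, letters of the E2F motif (TTTCGCGC, TTTGGCGC, TTTCCCGC or TTTGCCGC, either strand) stood in 15 genes (46.9%), beside 2.37% of 27457 genes with a window. CCAAT, the letters read by NF-Y, stood in 19 (59.4%, beside 39.6%), and both motifs in 11 (34.4%, beside 0.962%). The CHR letters of late cell cycle genes (TTTGAA or TTCGAA) stood in 6 (18.8%, beside 21% of all genes). A match is a description of the letters, not a binding site, and the deposited values were made on another build (rn6), so no coordinates were carried between them. The 250 bases upstream of the start are given 5′ to 3′ on the strand of the gene, with E2F and CCAAT letters of either strand in capitals. The first lines are 3 genes with large hindlimb differences and motif letters, Mcm5 (chr19:13488563-13488812, plus strand), Uhrf1 (the third of its annotated starts, chr9:1222936-1223185, plus strand) and Gins1 (chr3:160184670-160184919, plus strand). Mcm7 (chr12:22163179-22163428, minus strand) and Pola1 (chrX:62342356-62342605, minus strand) follow as genes with the letters and small differences, and Tk1 (chr10:103544778-103545027, minus strand) as a gene with a large difference and neither motif.
Mcm5: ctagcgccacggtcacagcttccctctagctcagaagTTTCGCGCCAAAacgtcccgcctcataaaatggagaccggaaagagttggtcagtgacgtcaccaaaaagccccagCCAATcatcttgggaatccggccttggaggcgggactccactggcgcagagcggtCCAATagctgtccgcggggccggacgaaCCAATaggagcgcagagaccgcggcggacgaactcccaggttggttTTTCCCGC
Uhrf1: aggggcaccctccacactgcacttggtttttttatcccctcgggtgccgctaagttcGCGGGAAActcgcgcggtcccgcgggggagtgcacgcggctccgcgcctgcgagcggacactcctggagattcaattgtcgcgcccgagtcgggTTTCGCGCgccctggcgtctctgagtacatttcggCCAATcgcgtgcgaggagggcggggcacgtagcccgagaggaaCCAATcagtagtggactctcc
Gins1: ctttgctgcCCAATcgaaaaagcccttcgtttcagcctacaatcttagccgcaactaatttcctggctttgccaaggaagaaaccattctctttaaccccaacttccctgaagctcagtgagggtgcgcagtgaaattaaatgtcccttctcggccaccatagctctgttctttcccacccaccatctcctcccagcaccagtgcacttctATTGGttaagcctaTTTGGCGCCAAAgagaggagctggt
Mcm7: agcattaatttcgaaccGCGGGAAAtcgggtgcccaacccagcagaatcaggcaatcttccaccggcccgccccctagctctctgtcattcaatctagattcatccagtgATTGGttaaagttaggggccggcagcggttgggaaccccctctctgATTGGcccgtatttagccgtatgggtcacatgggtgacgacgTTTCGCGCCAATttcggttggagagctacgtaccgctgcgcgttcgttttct
Pola1: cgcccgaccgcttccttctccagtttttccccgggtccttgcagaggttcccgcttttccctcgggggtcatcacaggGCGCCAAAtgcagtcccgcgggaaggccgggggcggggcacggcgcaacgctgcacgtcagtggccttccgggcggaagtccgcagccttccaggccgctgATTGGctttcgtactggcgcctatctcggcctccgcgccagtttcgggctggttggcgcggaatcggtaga
Tk1: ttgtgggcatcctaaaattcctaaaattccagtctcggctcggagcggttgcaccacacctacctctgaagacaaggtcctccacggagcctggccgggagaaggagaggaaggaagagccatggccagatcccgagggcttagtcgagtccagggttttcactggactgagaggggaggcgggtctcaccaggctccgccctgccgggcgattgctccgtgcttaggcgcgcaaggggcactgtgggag

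The letters and the size of the difference did not go together in every gene. Mcm5 held E2F letters at bases -213, -209 and -8 from the start (first base of the match) and CCAAT at -137, -82 and -54, and was 10.4-fold higher in Achilles than in flexor. Mcm7 held E2F letters at -233 and -52 with CCAAT at -140, -94 and -45, and was 1.43-fold higher. Pola1 held E2F letters at -172 and CCAAT at -71, and its 1.06-fold difference did not pass the test. Tk1, at 11.3-fold, held neither in this window, which says only that these letters are not in it. Mcm10 (log2 fold change 3.32), Ccne1 (2.35) and Chaf1b (2.23) held no E2F letters either, and of these only Mcm10 held CCAAT.

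**Figure D3:**
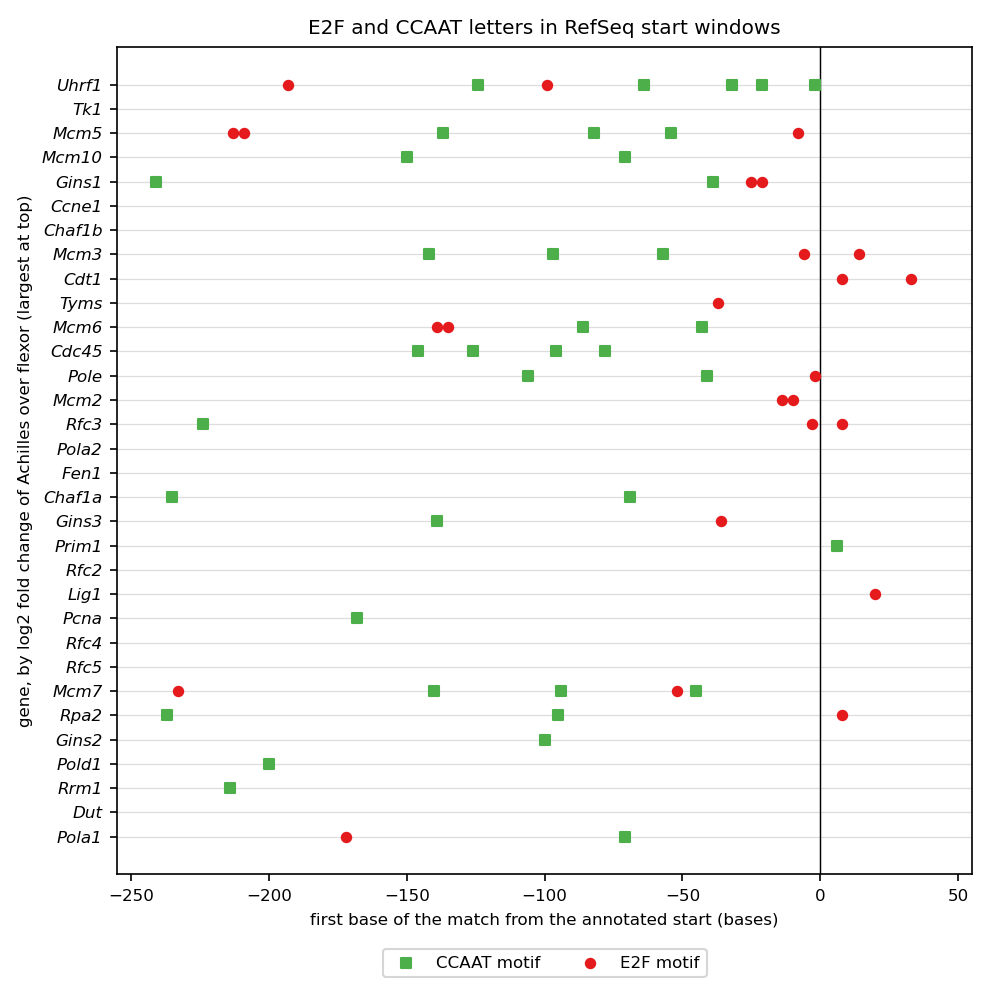
Positions of E2F letters (circles) and CCAAT (squares) in the RefSeq start windows of 32 genes, in bases from the annotated start, with genes ordered by the log2 fold change of Achilles over flexor. The rows of Uhrf1 and Dut lay their 3 and 2 annotated starts over each other. E2F letters stand in rows near the top (Uhrf1, Mcm5, Gins1) and in the bottom row (Pola1). The rows of Tk1, Mcm10, Ccne1 and Chaf1b, also near the top, hold none.

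The 6 MCM subunits, which form the core of the replicative helicase, were all called higher in Achilles than in flexor, with a median log2 fold change of 1.43. All 6 were also called lower in flexor than in patellar, and 5 of the 6 were called higher in Achilles than in supraspinatus and in patellar than in supraspinatus, with Mcm7 as the exception. Mcm5 measured 25.1, 39.2, 38.99 and 32.2 CPM in Achilles libraries 1 to 4 and 16.8, 17.9, 19.3 and 25.4 CPM in patellar. In flexor it measured 3.03, 3.49, 3.61 and 2.93 CPM and in supraspinatus 3.004, 5.65, 5.34 and 3.74 CPM. Every hindlimb library was above every forelimb library, and Patellar 4 reached the level of Achilles 1. The log2 fold change of Achilles over flexor was 3.38 ± 0.22 (SE; adjusted p = 1.82e-07) and that of patellar over supraspinatus 2.16 ± 0.21 (adjusted p = 2.38e-06).

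Mcm4 had a smaller range. It measured 29.7, 35.2, 35.1 and 37.9 CPM in Achilles, 27.1, 20.8, 22.03 and 31.5 CPM in patellar, 19.9, 20.3, 21.4 and 18.9 CPM in flexor and 18.8, 18.9, 18.8 and 17.3 CPM in supraspinatus. The Achilles libraries lay above all forelimb libraries, whereas patellar and flexor overlapped. Achilles was 1.71-fold above flexor (log2 0.78 ± 0.12, adjusted p = 0.000111). Mcm7 was the only subunit whose supraspinatus libraries reached the hindlimb range. It measured 41.8, 48.5, 48.7 and 46.1 CPM in Achilles and 38.1, 40.2, 38.03 and 38.2 CPM in patellar, beside 31.4, 29.7, 36.9 and 31.2 CPM in flexor and 39.9, 42.8, 38.6 and 43.98 CPM in supraspinatus. Flexor was the lowest tendon, with log2 values of -0.26 ± 0.08 over patellar (adjusted p = 0.0145) and -0.36 ± 0.08 over supraspinatus (adjusted p = 0.00205). Achilles and supraspinatus overlapped, and their difference did not pass the test (0.16 ± 0.08, adjusted p = 0.102). The intron of Mcm7 hosts the microRNAs Mir25, Mir93 and Mir106b, whose precursor reads the gene count could include. The means of Mcm2, Mcm3 and Mcm6 were 2.38, 4.51 and 3.03-fold higher in Achilles than in flexor, and none of the 3 was called in Achilles over patellar (1.36, 1.37 and 1.37-fold).

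Cdc6 and Cdt1, which load the ring, and Mcm10, which helps the loaded helicase to fire, differed most as a group, with a median log2 fold change of 3.32 in Achilles over flexor and 2.63 in patellar over supraspinatus. All 3 were called in the 4 pairs that cross the limbs and 0 of 3 in Achilles over patellar. Mcm10 measured 6.55, 6.65, 8.33 and 6.198 CPM in Achilles and 5.72, 5.91, 7.92 and 5.34 CPM in patellar. The forelimb libraries measured 0.566, 0.696, 0.895 and 0.618 CPM in flexor and 0.981, 1.18, 1.17 and 0.5502 CPM in supraspinatus. The limbs were far apart and the tendons of each limb overlapped. Log2 fold changes were 3.32 ± 0.24 in Achilles over flexor (adjusted p = 3.63e-07) and 2.67 ± 0.24 in patellar over supraspinatus (adjusted p = 1.28e-06). Cdc6 had the largest fold of the set, from 0.452 ± 0.08602 CPM (SD, n = 4) in flexor to 6.51 ± 2.07 CPM in Achilles. Cdt1 rose from 1.61 ± 0.276 CPM in flexor to 5.19 ± 2.44 CPM in Achilles, where its libraries ran from 2.33 CPM in Achilles 1 to 8.27 CPM in Achilles 4.

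CDC45 and the 4 GINS subunits turn the loaded ring into the active helicase. All 5 genes were called higher in Achilles than in flexor and than in supraspinatus, and 4 of 5 in patellar over each forelimb tendon, with Gins2 not called there. Gins1 measured 3.75, 4.54, 4.84 and 5.597 CPM in Achilles, 2.37, 2.67, 3.25 and 3.74 CPM in patellar, 0.991, 0.665, 0.7198 and 1.15 CPM in flexor and 0.736, 1.06, 1.84 and 0.647 CPM in supraspinatus. Its hindlimb libraries did not overlap the forelimb libraries, and every Achilles library was above the highest patellar library, Achilles 1 by a small margin. It was 5.296-fold higher in Achilles than in flexor (log2 2.40 ± 0.31, adjusted p = 2.66e-05). Gins2, a partner in the same complex, measured 15.6, 14.2, 14.1 and 13.4 CPM in Achilles, 14.4, 12.3, 10.8 and 12.4 CPM in patellar, 9.47, 9.42, 12.8 and 11.03 CPM in flexor and 9.24, 9.17, 11.8 and 11.4 CPM in supraspinatus. Its patellar libraries overlapped both forelimb tendons, and Achilles was 1.34-fold above flexor (log2 0.42 ± 0.13, adjusted p = 0.0135). The 5 genes of the active helicase thus ranged from 1.34-fold to 5.296-fold in the same pair, with Gins4 at 1.702, Gins3 at 1.904 and Cdc45 at 2.78-fold.

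The polymerase and primase genes differed less. In Achilles over flexor 4 of 5 were called higher, all but Pola1, with a median log2 fold change of 0.82. Prim1, the small primase subunit, measured 34.8, 44.2, 48.6 and 37.97 CPM in Achilles, 25.5, 33.7, 32.1 and 29.9 CPM in patellar, 20.9, 22.8, 26.6 and 23.3 CPM in flexor and 21.6, 21.2, 19.5 and 15.3 CPM in supraspinatus. Achilles stood above the other 3 tendons without overlap, and its log2 fold change over supraspinatus was 1.09 ± 0.14 (adjusted p = 1.88e-05). Pole, the catalytic subunit of the leading strand polymerase, measured 9.37, 13.7, 16.3 and 16.7 CPM in Achilles, 9.09, 9.73, 6.204 and 9.64 CPM in patellar, 5.303, 5.42, 6.72 and 5.49 CPM in flexor and 5.49, 5.51, 4.67 and 3.87 CPM in supraspinatus. Achilles lay above every forelimb library, with a log2 fold change of 1.52 ± 0.20 over supraspinatus (adjusted p = 2.56e-05), whereas Patellar 3 fell within the flexor range. Pold1, the catalytic subunit of polymerase delta, was higher in Achilles than in flexor (log2 0.37 ± 0.10, adjusted p = 0.00569), and patellar did not differ from flexor or supraspinatus beyond the spread (-0.06 ± 0.10 in flexor over patellar and -0.02 ± 0.10 in patellar over supraspinatus).

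The 2 subunits of polymerase alpha followed other patterns. Pola1, the catalytic subunit, measured 15.96, 22.2, 20.1 and 17.1 CPM in Achilles, 17.4, 21.2, 15 and 18 CPM in patellar and 17.97, 16.4, 18.7 and 18.1 CPM in flexor. In supraspinatus it measured 16.6, 13.3, 13.5 and 13.6 CPM. The first 3 tendons overlapped and differed by log2 values of 0.08 or less. Supraspinatus was lower than each of them (Achilles over supraspinatus 0.40 ± 0.13, adjusted p = 0.0149), a call that ended without Achilles 2 (adjusted p = 0.0813) or Achilles 3 (adjusted p = 0.0635) and held in the other 23 alternatives. Its calls against patellar (adjusted p = 0.0363) and flexor (adjusted p = 0.0473) were lost in 15 and 19 of the 25 alternatives. Among these were fits without 1 library, with adjusted p-values up to 0.195 and 0.181. Pola2, the accessory subunit, measured 32.4, 28.3, 27.7 and 29.2 CPM in Achilles, 30.7, 26.96, 26.04 and 29.2 CPM in patellar, 15.99, 12.4, 12.6 and 16.8 CPM in flexor and 25.8, 27.99, 25.7 and 44.8 CPM in supraspinatus. Flexor alone was low, without overlap, at log2 -1.10 ± 0.17 over supraspinatus (adjusted p = 9.13e-05). Supraspinatus 4 was far above the other supraspinatus libraries and had the highest muscle marker sum of all libraries (207500 CPM), whose part in this value was not tested. Without that library the flexor difference was -0.82 (adjusted p = 0.000101).

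**Figure D4:**
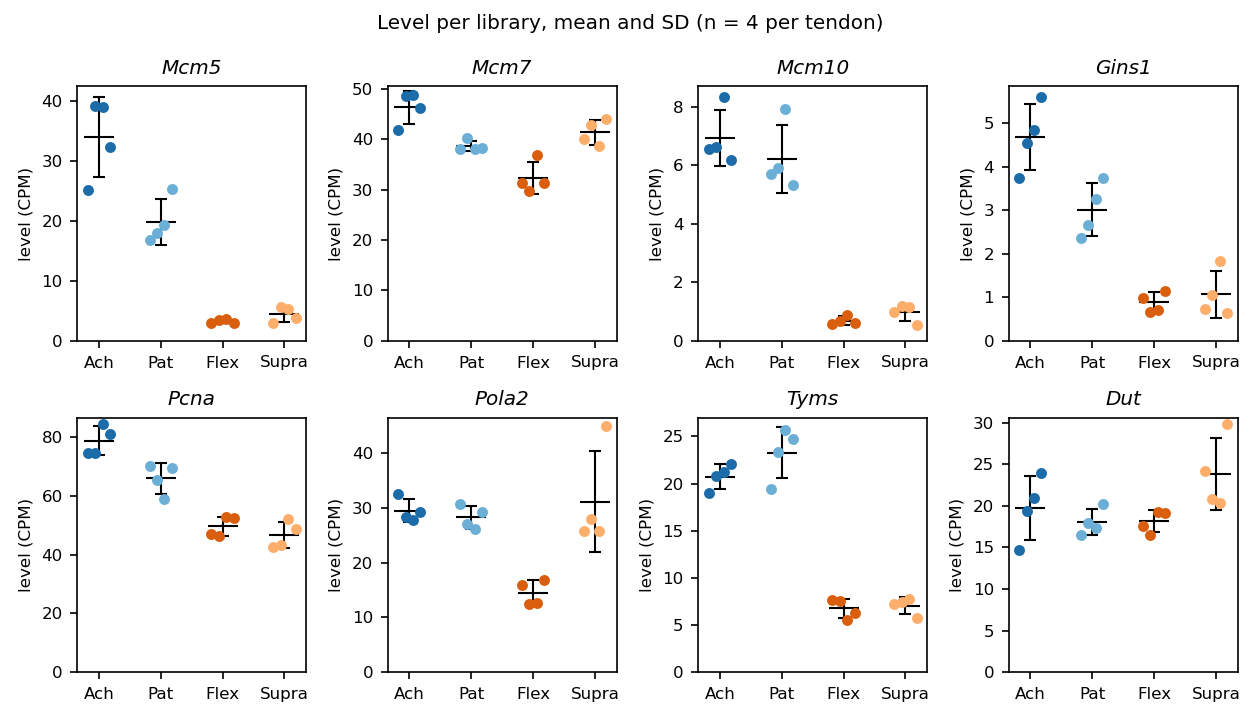
Level of 8 genes in CPM in each library (points), with the mean and SD of the 4 libraries of each tendon. In the panels of Mcm5, Mcm10, Gins1, Pcna and Tyms the hindlimb points lie above the forelimb points, the flexor points are lowest in Mcm7 and Pola2, and in Dut the Achilles points overlap those of every other tendon.

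PCNA and the subunits of its loader rose together in the hindlimb by small steps with little spread. In Achilles over flexor and over supraspinatus 5 of 5 were called higher, and 4 of 5 in patellar over each forelimb tendon. Pcna measured 74.5, 74.6, 84.4 and 80.8 CPM in Achilles, 69.95, 65.3, 58.7 and 69.3 CPM in patellar, 47.04, 46.3, 52.6 and 52.3 CPM in flexor and 42.5, 43.3, 51.9 and 48.6 CPM in supraspinatus. The Achilles, patellar and forelimb libraries formed 3 steps without overlap, although the step from patellar to Achilles did not pass the test (adjusted p = 0.101). Achilles was 1.58-fold above flexor (log2 0.66 ± 0.09, adjusted p = 3.08e-05). Rfc3, a loader subunit, measured 17.3, 17.5, 20.2 and 19.3 CPM in Achilles, 13.99, 12.2, 13.8 and 15.6 CPM in patellar, 7.45, 8.13, 8.36 and 7.96 CPM in flexor and 8.04, 6.43, 7.34 and 8.74 CPM in supraspinatus. It showed the same steps, with log2 fold changes of 1.22 ± 0.11 in Achilles over flexor (adjusted p = 1.44e-06) and -0.80 ± 0.11 in flexor over patellar (adjusted p = 3.19e-05). Rfc5, another loader subunit, measured 26.5, 24.6, 29.6 and 26.3 CPM in Achilles, 19.5, 19.4, 18.9 and 21.2 CPM in patellar, 16.6, 15.3, 18.6 and 18.9 CPM in flexor and 15.1, 13.1, 14.5 and 13.4 CPM in supraspinatus. Its 4 tendons formed a series from Achilles to supraspinatus in which only patellar and flexor did not differ by the test (log2 -0.19 ± 0.09, adjusted p = 0.0948).

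Among the genes that finish the lagging strand and cover single strands, 3 of 3 were higher in Achilles than in each forelimb tendon. Fen1, the flap nuclease, measured 13.7, 15.96, 15.2 and 13.5 CPM in Achilles, 9.33, 8.43, 9.596 and 12.9 CPM in patellar, 8.15, 7.25, 6.71 and 7.16 CPM in flexor and 8.78, 7.69, 8.51 and 10.1 CPM in supraspinatus. Achilles stood clear of the other tendons, and patellar overlapped supraspinatus. Achilles was 1.995-fold above flexor (log2 0.996 ± 0.13, adjusted p = 3.62e-05). Rpa2, a subunit of the single strand binding complex, measured 28.6, 29.3, 30.01 and 32.8 CPM in Achilles, 24.7, 24.04, 20.7 and 26.4 CPM in patellar, 21.8, 21.8, 20.8 and 20.9 CPM in flexor and 22.7, 19.9, 22.8 and 25.2 CPM in supraspinatus. Achilles was again alone above the others, which overlapped, and its log2 fold change over flexor was 0.50 ± 0.09 (adjusted p = 0.000372). Lig1, the ligase that seals the fragments, was 1.64-fold higher in Achilles than in flexor and 1.49-fold higher in patellar than in supraspinatus (adjusted p = 0.00235 and 0.00726).

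The genes of nucleotide supply held both large and small differences. Tyms, which makes thymidylate, was 1 of 2 genes with their highest mean in patellar. It measured 19.4, 23.3, 25.6 and 24.7 CPM in patellar and 18.96, 20.8, 21.2 and 22.02 CPM in Achilles, beside 7.69, 7.54, 5.54 and 6.34 CPM in flexor and 7.26, 7.44, 7.8 and 5.76 CPM in supraspinatus. The limbs did not overlap, and the tendons of each limb did. Its log2 fold changes were -1.78 ± 0.13 in flexor over patellar (adjusted p = 2.51e-07) and 1.55 ± 0.13 in Achilles over supraspinatus (adjusted p = 1.28e-06). The 2 subunits of ribonucleotide reductase differed from each other. Rrm1, the large subunit, measured 65.3, 70.2, 73.4 and 69.7 CPM in Achilles, 61.1, 55.3, 48.96 and 62.1 CPM in patellar, 57.7, 50.4, 56.4 and 53.5 CPM in flexor and 58.3, 55.9, 54.95 and 69.2 CPM in supraspinatus. Patellar, flexor and supraspinatus overlapped, and Achilles was 1.28-fold above flexor (log2 0.35 ± 0.09, adjusted p = 0.00602). Rrm2, the small subunit whose RNA rises in S phase, went from 0.384 ± 0.0906 CPM (SD, n = 4) in flexor to 4.67 ± 1.65 CPM in Achilles, 12.1-fold (adjusted p = 1.38e-05). Tk1, the thymidine kinase of the S phase cytosol, went from 2.79 ± 0.606 CPM in flexor and 6.06 ± 0.825 CPM in supraspinatus to 21.8 ± 4.36 CPM in patellar and 31.6 ± 11.8 CPM in Achilles.

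Dut, which removes dUTP, was the gene least like the rest. It measured 14.8, 19.4, 21 and 23.9 CPM in Achilles, 16.6, 17.98, 17.4 and 20.2 CPM in patellar, 17.6, 16.5, 19.3 and 19.1 CPM in flexor and 24.2, 20.9, 20.4 and 29.9 CPM in supraspinatus. The flexor and patellar libraries lay within the range of Achilles, and the supraspinatus libraries lay above both, at log2 -0.40 ± 0.15 in patellar over supraspinatus (adjusted p = 0.0294). That call ended without any 1 of Patellar 1, Patellar 3, Supraspinatus 1 and Supraspinatus 4, with adjusted p-values of 0.0533 to 0.162 and a log2 fold change of -0.24 without Supraspinatus 4. On library totals without TMM scaling the value was 0.03 (adjusted p = 0.859).

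Chromatin genes of the replication fork differed strongly. All 3 were called higher in each hindlimb tendon than in each forelimb tendon, with a median log2 fold change of 2.23 in Achilles over flexor. Uhrf1, which passes DNA methylation on to the new strand, measured 12.3, 24.5, 20.3 and 25.1 CPM in Achilles and 14.6, 12.2, 14.2 and 22.6 CPM in patellar, beside 1.77, 2.34, 1.34 and 1.62 CPM in flexor and 2.18, 3.04, 2.82 and 2.91 CPM in supraspinatus. The lowest hindlimb library was several times the highest forelimb library, and Achilles was 11.6-fold above flexor (log2 3.54 ± 0.27, adjusted p = 4.44e-07). Chaf1a, the large subunit of chromatin assembly factor 1, measured 14.3, 17.6, 19.02 and 17.6 CPM in Achilles, 11.8, 14.4, 12.3 and 17.6 CPM in patellar, 8.597, 8.93, 9.902 and 7.203 CPM in flexor and 7.21, 6.15, 8.09 and 5.66 CPM in supraspinatus. The limbs did not overlap, with 1.98-fold in Achilles over flexor (log2 0.98 ± 0.15, adjusted p = 0.000135). Its partner Chaf1b was 4.702-fold higher in Achilles than in flexor and 2.35-fold higher than in supraspinatus.

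The cyclin E genes, which drive entry into S phase with CDK2, were both called higher in each hindlimb tendon than in each forelimb tendon. Ccne1 measured 0.753, 2.01, 2.35 and 3.21 CPM in Achilles, 0.985, 2.03, 2.83 and 4.34 CPM in patellar, 0.274, 0.645, 0.457 and 0.247 CPM in flexor and 0.625, 0.624, 0.419 and 0.5502 CPM in supraspinatus. Its hindlimb libraries spread widely, with library 1 lowest in both hindlimb tendons and library 4 highest. Patellar was the highest tendon, and flexor over patellar had a log2 fold change of -2.64 ± 0.49 (adjusted p = 0.000456). Ccne2 measured 8.098, 11.4, 15.01 and 15.4 CPM in Achilles, 10.97, 10.5, 9.83 and 12.1 CPM in patellar, 7.16, 6.803, 5.57 and 4.71 CPM in flexor and 4.58, 5.23, 5.23 and 6.49 CPM in supraspinatus. It was 2.06-fold higher in Achilles than in flexor (log2 1.04 ± 0.19, adjusted p = 0.00053), with the limbs apart in every library.

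Between the hindlimb tendons the differences were small and mostly 1 way. In Achilles over patellar 6 of the 37 genes were called higher and 0 lower, against 5.16% of all genes tested called and 3.1% called higher. At an unadjusted p under 0.05 there were 20 higher and 0 lower. The 6 were Rfc5 (log2 0.44 ± 0.09, adjusted p = 0.0146), Fen1 (0.53 ± 0.13, 0.0324), Rfc3 (0.42 ± 0.11, 0.0367), Mcm5 (0.77 ± 0.20, 0.04), Mcm4 (0.44 ± 0.12, 0.0443) and Rpa2 (0.33 ± 0.09, 0.0445), each with its SE and adjusted p. For Rfc3, Rfc5, Fen1 and Rpa2 the 4 Achilles libraries lay above the 4 patellar libraries, and for Mcm4 and Mcm5 they overlapped. Achilles stood above patellar without overlap for 12 of the 37 genes and below it for 0, against 6.69% and 5.82% of all genes tested. Leaving out 1 library at a time gave 0 to 11 called genes. Without Patellar 3 the count was 0 (17 at an unadjusted p under 0.05), without Achilles 2, Achilles 3 or Patellar 2 it was 1, without Achilles 4 it was 2, without Flexor 2 it was 3, without Achilles 1 it was 10 and without Supraspinatus 4 it was 11. DESeq2 called 17 and limma-voom 8. For these other fits the share of all genes called is not given here.

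Between the forelimb tendons the genes moved in both directions. In flexor over supraspinatus 2 genes were higher and 7 lower, against 47.7% of all genes tested called, 23.4% higher and 24.3% lower. Higher in flexor were Rfc5 (log2 0.31 ± 0.09, adjusted p = 0.0111) and Pola1 (0.32 ± 0.13, adjusted p = 0.0473). The Pola1 call was lost in 19 of the 25 alternative fits. Lower in flexor were Tk1 (-1.11 ± 0.26, adjusted p = 0.00239), Pola2, Chaf1b (-1.003 ± 0.28, adjusted p = 0.00772), Cdc6 (-0.67 ± 0.26, adjusted p = 0.0447), Uhrf1 (-0.63 ± 0.25, adjusted p = 0.0471), Dut (-0.39 ± 0.15, adjusted p = 0.037) and Mcm7. The calls of Pola1, Cdc6, Uhrf1, Dut and Rfc5 each ended without at least 1 single library, with adjusted p-values up to 0.254, and without Flexor 4 the calls numbered 5. Libraries did not overlap for 3 genes higher in flexor and 5 lower, against 23.6% and 24.4% of all genes tested. The direction in this pair depended on scaling. On library totals without TMM, where the median of all genes moved to 0.31, 15 of the 37 genes were higher in flexor and 2 lower. On that scale 78.3% of the calls among all genes in this pair were higher. The share of all genes called on library totals is not given here for any pair.

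Across the limbs 36 genes were called higher in Achilles than in supraspinatus on library totals and 35 in patellar than in supraspinatus. There the median of all genes moved to 0.47 in Achilles over supraspinatus and 0.46 in patellar over supraspinatus, the share of calls that were higher went from 50.7% to 78.7% and from 51.1% to 77% (49% to 78.3% in flexor over supraspinatus), and the medians of the 37 genes became 1.62 and 1.22. On that scale Mcm7 (0.32), Pold1 (0.39) and Rrm1 (0.36) changed sign and were called higher in patellar than in supraspinatus, and Pola2 (0.36) in Achilles than in supraspinatus.

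Libraries of a tendon also differed among themselves. The 37 genes summed to 773, 899, 935 and 923 CPM in Achilles 1 to 4 and to 700.3, 667, 642 and 786 CPM in patellar. They summed to 441, 437, 476 and 443 CPM in flexor and to 466, 468, 487 and 494 CPM in supraspinatus. The lowest hindlimb sum, 642 CPM, was above the highest forelimb sum. Achilles 1 was the lowest Achilles library for 28 of the 37 genes, and for 35.4% of all genes tested. Patellar 4 was the highest patellar library for 22, and for 30.2% of all genes tested. Without Achilles 1 and Patellar 1 together, 35 genes were still called higher in Achilles than in flexor and 30 lower in flexor than in patellar. Single libraries decided few calls across the limbs besides those of Pola1 and Dut. Pold1 was no longer called in Achilles over supraspinatus without Achilles 2 (adjusted p = 0.0792). Mcm4 and Rfc4 were no longer called in flexor over patellar without Patellar 4 (adjusted p = 0.0663 and 0.0601). In the same pair Lig1 was lost without Flexor 1, 2 or 4 or Patellar 1 or 4 (adjusted p up to 0.0724), and Prim1 without Flexor 1, 2 or 4 or Patellar 2 or 3 (adjusted p up to 0.0807). Chaf1b was lost in patellar over supraspinatus without Patellar 2, Patellar 4 or Supraspinatus 4 (adjusted p up to 0.0717).

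Markers of some other cell types also tended to be higher in the hindlimb, but not of all. The 8 macrophage markers overlapped between the limbs, at 709 to 1177 CPM in Achilles and 774 to 1516 CPM in patellar. They summed to 685 to 1151 CPM in flexor and 432 to 1071 CPM in supraspinatus. The 5 satellite cell markers were higher in the forelimb, at 18.1 to 62.1 CPM in flexor and 76.3 to 108 CPM in supraspinatus. In Achilles they summed to 3.37 to 9.35 CPM and in patellar to 2.62 to 13.05 CPM. The 9 endothelial markers summed to 1391 to 2060 CPM in Achilles and 1694 to 2817 CPM in patellar, against 460 to 802 CPM in flexor and 698 to 1415 CPM in supraspinatus. The 6 adipocyte markers summed to 2231 to 8283 CPM in Achilles and 3397 to 9438 CPM in patellar, against 329 to 659 CPM in flexor and 59.6 to 149 CPM in supraspinatus. The 7 chondrocyte markers summed to 4153 to 9254 CPM in flexor and 3696 to 9002 CPM in supraspinatus. In Achilles they summed to 1011 to 4468 CPM and in patellar to 926 to 1802 CPM. The 11 lymphocyte markers summed to 98.2 to 139.8 CPM in Achilles and 112 to 159.6 CPM in patellar. In flexor they summed to 73.1 to 87.3 CPM and in supraspinatus to 68.0 to 99.8 CPM. Of the 11 lymphocyte markers 8 passed the filter on low counts. Precursors of blood cells divide often and can carry replication RNA. The 11 neutrophil precursor markers summed to 6.55 to 22.4 CPM in Achilles and 19.1 to 69.8 CPM in patellar, against 1.08 to 1.41 CPM in flexor and 0.865 to 1.39 CPM in supraspinatus, with Elane and Prtn3 at 0 in all 4 supraspinatus libraries. Ms4a3 was at 0 in 15 of the 16 libraries, Ctsg in 14, Prtn3 in 7 and Elane in 6. Of the 11 markers 7 passed the filter on low counts. The list also holds S100a8, Ltf and Ngp, and how much of its sum came from dividing precursors was not tested. The 8 erythroid precursor markers summed to 25.2 to 32.5 CPM in Achilles and 26.6 to 45.3 CPM in patellar, against 11.2 to 19.7 CPM in flexor and 5.10 to 9.35 CPM in supraspinatus. In patellar, library 4 had the highest sum of the 37 genes (785.6 CPM), the highest erythroid precursor sum (45.3 CPM) and the lowest neutrophil precursor sum. In Achilles, library 1 had the lowest sum of the 37 genes (772.7 CPM) and the highest erythroid (32.5 CPM) and neutrophil precursor sums. The part of any of these cells in the limb difference was not tested.

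**Figure D5:**
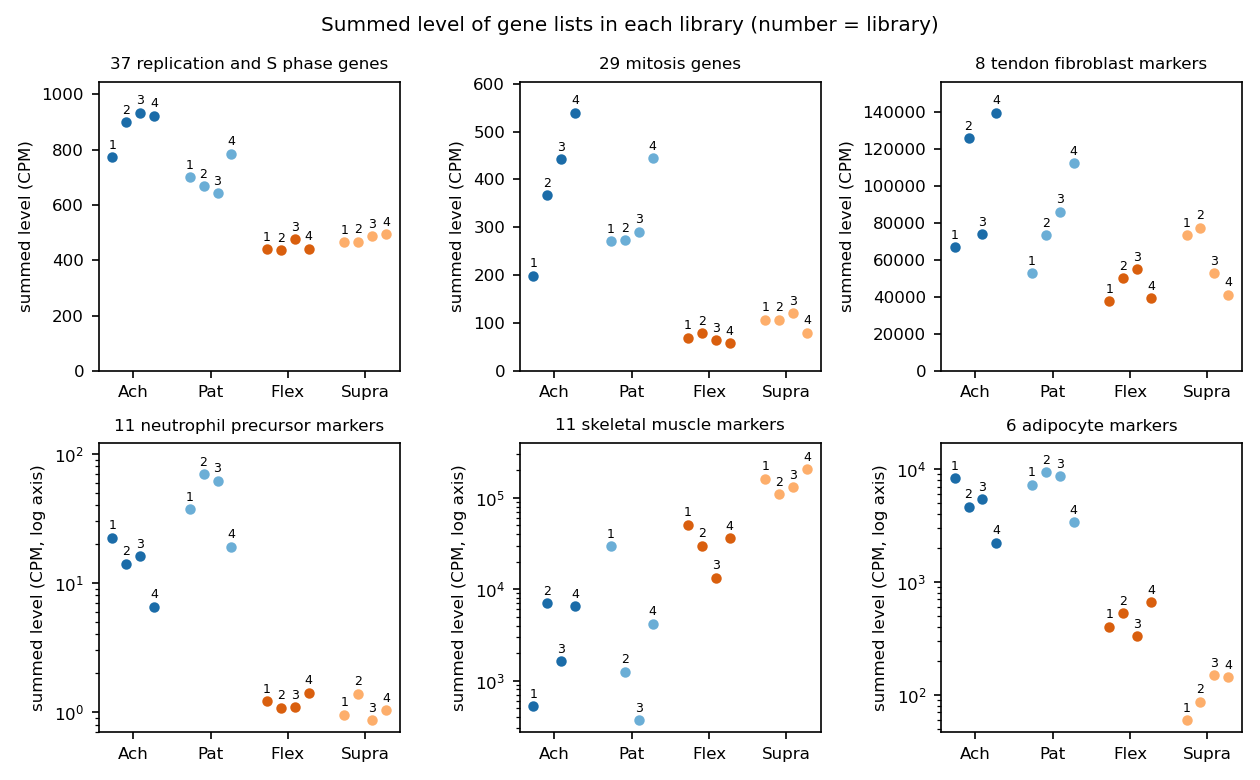
Summed CPM per library of the 37 replication and S phase genes, 29 mitosis genes and markers of 4 cell types, with the library number beside each point and log axes in the lower row. The first panel runs from 437 CPM in flexor to 935 CPM in Achilles with the limbs apart, and the neutrophil precursor, adipocyte and mitosis sums are also higher in the hindlimb, while the muscle sum is highest in supraspinatus.

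Genes of mitosis, a later step of the same cycle, differed in the same pairs and by more. Of 29 mitosis genes tested, 29 were called higher in Achilles than in flexor (median log2 fold change 2.96), against 23.5% of all genes tested. In patellar over supraspinatus 28 were called higher (2.42), against 28.8%. In Achilles over patellar 0 were called, against 5.16% of all genes tested. There 0 also had an unadjusted p under 0.05 by edgeR, DESeq2 and limma-voom. Top2a, the topoisomerase that untangles sister chromatids, averaged 32.7 ± 13.6 CPM (SD, n = 4) in Achilles, 28.9 ± 7.08 CPM in patellar, 1.56 ± 0.541 CPM in flexor and 3.07 ± 0.979 CPM in supraspinatus. Mki67, the proliferation marker, averaged 17.9 ± 9.49 and 18.03 ± 6.94 CPM in the hindlimb tendons and 3.09 ± 1.45 and 3.08 ± 0.933 CPM in flexor and supraspinatus. The mitosis genes summed to 199 CPM in Achilles 1 and to 367 to 540 CPM in the other Achilles libraries, the same library that was low for the replication genes.

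A wider list of 63 other replication and S phase genes, of which 62 were tested, was more mixed. In Achilles over flexor 39 were higher and 4 lower, against 23.5% and 24.1% of all genes tested. In patellar over supraspinatus 39 were higher and 7 lower, against 28.8% and 27.5%. The medians were 0.54 and 0.58. High in the hindlimb were the repressor of E2F targets E2f7 (log2 3.83 ± 0.45 in Achilles over flexor, adjusted p = 1.3e-05), the ubiquitin ligase subunit Dtl (3.47 ± 0.31, adjusted p = 1.61e-06), cyclin A2 (Ccna2, 3.42 ± 0.58, adjusted p = 0.000265) and the histone chaperone Asf1b (3.21 ± 0.28 over supraspinatus, adjusted p = 1.82e-06). Some had other patterns. Mcm9, a helicase of homologous recombination and mismatch repair that is not part of the MCM2 to MCM7 ring, averaged 20.95 CPM in flexor, 12.95 CPM in patellar, 10.01 CPM in Achilles and 5.80 CPM in supraspinatus (1.85 ± 0.27 in flexor over supraspinatus, adjusted p = 6.53e-05), with both hindlimb tendons between the forelimb tendons. Rnaseh2a, the catalytic subunit of RNase H2, averaged 75.5 CPM in supraspinatus and 36.2 CPM in Achilles (-1.06 ± 0.08, adjusted p = 8.26e-07). Rrm2b, the small reductase subunit used outside S phase, was also highest in supraspinatus, at 14.2 CPM against 7.01 CPM in Achilles (-1.02 ± 0.11, adjusted p = 8.94e-06), opposite in direction to Rrm2. E2f2, another E2F factor, averaged 11.24 CPM in supraspinatus, 9.56 CPM in flexor, 7.23 CPM in Achilles and 6.84 CPM in patellar. It was lower than in supraspinatus in Achilles (-0.64 ± 0.17, adjusted p = 0.00622) and in patellar (-0.72 ± 0.17, adjusted p = 0.00255). It was also higher in flexor than in patellar (0.48 ± 0.17, adjusted p = 0.028). In Achilles over patellar 2 of the 62 passed, against 5.16% of all genes tested. They were Wdhd1 (0.75 ± 0.12, adjusted p = 0.00351), a replisome scaffold, and Rpa1 (0.32 ± 0.08, adjusted p = 0.045), the partner of Rpa2.

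Ccnd1 and Ccnd2, D cyclins that act before cyclin E, were higher in each hindlimb tendon than in each forelimb tendon. Ccnd2 averaged 301 ± 27.5 CPM (SD, n = 4) in Achilles, 293 ± 19.3 CPM in patellar, 109 ± 3.12 CPM in flexor and 114 ± 10.1 CPM in supraspinatus, with a log2 fold change of 1.46 ± 0.09 in Achilles over flexor (adjusted p = 1.35e-07). Ccnd1 was higher by 1.41 ± 0.17 in the same pair (adjusted p = 1.46e-05) and by 1.005 ± 0.17 in patellar over supraspinatus (adjusted p = 0.000164). The list of 14 D cyclins, their kinases, CDK inhibitors and pocket proteins went in both directions. In Achilles over flexor 7 were higher and 5 lower, against 23.5% and 24.1% of all genes tested. Rbl2, a pocket protein that holds E2F targets silent in resting cells, was among the lower genes, at 89.1 ± 4.07 CPM in Achilles and 119 ± 10.2 CPM in flexor.

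The authors' deposited table of comparisons held 36 of the 37 genes (not Ccne1). Its calls were 34 higher in Achilles than in flexor, 34 higher in Achilles than in supraspinatus, 30 lower in flexor than in patellar, and 27 higher and 1 lower in patellar than in supraspinatus. In Achilles over patellar the authors' deposited table called 11 genes higher, the 6 above together with Mcm3, Mcm7, Prim1, Pole and Tk1. That table held 12588 genes. The share of all of them called in each pair is not given here, so these counts have no background beside them. The gene counts may hold reads of neighbours for some members. How the counting treated strand is not given in the sources at hand, and in the GRCr8 annotation another protein-coding gene overlaps Gins2 (Gse1), Fen1 (Tmem258), Lig1 (Zswim9), Rrm2 (Cys1), Uhrf1 (Arrdc5) and Ccne2 (Ints8), so reads from the overlaps cannot be told apart.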

How the data were processed

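Gene counts of 16 rat tendon libraries, 4 per tendon, were analysed as deposited. Per the labels, total RNA came from a miRNeasy Micro kit with DNase I treatment and went into standard Illumina libraries. The submitters' processing notes name FastQC, HISAT2, edgeR and the build rn6, without versions. Which program counted reads, its strand setting and the annotation release are not stated there. The authors' deposited count table holds raw counts per gene, and the authors' deposited comparison table holds log2 fold changes, log2 CPM values and p-values with adjusted p-values from edgeR.

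Counts were fitted in R 4.3.3 with edgeR 4.0.16 (TMM scaling, filterByExpr at min.count 10 and min.total.count 15, glmQLFit with 1 coefficient per tendon, glmQLFTest, 12 residual degrees of freedom). Each pair of tendons was a contrast of that fit over all 16 libraries. P-values were adjusted by Benjamini-Hochberg over the 16948 genes tested, with a threshold of 0.05. CPM are counts scaled to the TMM-adjusted library total, not corrected for gene length, so levels were not compared between genes. Standard errors are the log2 fold change divided by the square root of F. The fit was also run on counts simulated from its own estimates of spread, with some genes changed in Achilles only. Such counts do not test the scaling between tendons of unlike composition, and no result from them is used here.

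The fit was repeated with DESeq2 1.42.0, other size factors (median of ratios), plain library totals, limma-voom (limma 3.58.1), no filter, a stricter filter (above 1 CPM in 8 libraries), each pair fitted alone, a replicate block, and leaving out libraries. Per-library values were given for the genes with the highest level and the smallest p in each role, those with an unusual highest tendon and those called in Achilles over patellar. The members, lists and rules were chosen with earlier results of these data known. Start sequences came from RefSeq (GRCr8).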

Additional observations from a re-analysis of the deposited data

Results flagged for a closer look

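In 148 groups of 4 libraries (37 genes in 4 tendons), 6 groups held a library far from the other 3, where chance flags about 1 in 20 groups. Pola2 measured 44.8 CPM in Supraspinatus 4 against 25.7 to 28.0 CPM in the other 3 supraspinatus libraries. Pola1 measured 16.6 CPM in Supraspinatus 1 against 13.3 to 13.6 CPM, and Mcm4 measured 17.3 CPM in Supraspinatus 4 against 18.8 to 18.9 CPM. Mcm7 measured 40.2 CPM in Patellar 2 against 38.03 to 38.23 CPM. Pold1 measured 25.1 CPM in Achilles 2 against 22.3 to 22.7 CPM, and Pole measured 6.72 CPM in Flexor 3 against 5.30 to 5.49 CPM. The gap for Pola2 was large beside its level, while the gaps for Mcm4 and Mcm7 were small beside theirs because the other 3 libraries lay close together.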

How the results depend on the processing

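The counts of genes called across the limbs held under every alternative within 1.5 times. Leaving out 1 library at a time gave 35 to 37 genes in the test among the 4 tendons, 35 to 35 in Achilles over flexor, 31 to 35 in Achilles over supraspinatus, 27 to 31 in flexor over patellar and 27 to 29 in patellar over supraspinatus. Within a limb the counts depended on the processing. They are given without the share of all genes called in each alternative fit. In Achilles over patellar (6 genes) the count was 3 on library totals and 2 with no filter. DESeq2 called 17 and limma-voom 8, both fitted over all 16 libraries. With the pair fitted alone, by edgeR only, the count was 0, with 18 genes at an unadjusted p under 0.05. When 1 library was left out it was 0 to 11. In flexor over supraspinatus (9 genes) it was 17 on library totals and 5 with no filter, and 5 to 9 when 1 library was left out. The cause was not tested. Changed in sign on library totals were Pola2 in Achilles over supraspinatus (0.358), Rpa2 in flexor over supraspinatus (0.263), and Mcm7 (0.322), Pold1 (0.39), Rrm1 (0.358) and Dut (0.0273) in patellar over supraspinatus, since that scale leaves out the TMM factors, which are lowest in supraspinatus. Of these only Dut was called in the main fit, and on library totals it was not (adjusted p = 0.859). The others were uncalled in the main fit, at log2 values of -0.10 to -0.02.

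Libraries share the numbers 1 to 4 across tendons. The titles give the number after the word Rat and do not say whether it marks 1 animal. The main fit therefore did not pair the libraries, and the replicate block was an alternative. Of 24 same-numbered pairs 9 had deviations correlated above 0.1 (-0.21 to 0.37). 10 of 16 libraries correlated best with their own number, a hint that libraries of a number are related. These values do not settle whether they came from the same animal. With the replicate block the counts were 36 among the 4 tendons, 35, 6, 33, 30, 8 and 28 in Achilles over flexor, Achilles over patellar, Achilles over supraspinatus, flexor over patellar, flexor over supraspinatus and patellar over supraspinatus. Each library value of the 37 genes rested on 21 counts or more, and values of genes outside the set on fewer in places (15 for E2f7 in a flexor library and 18 for Ccna2 in a supraspinatus library), where counting error adds to the spread between libraries.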
